A study of Pantherophis guttatus with 6 samples.

Results

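The 7 iridophore regulators described here are *LTK*, *ALKAL1*, *ALKAL2*, *TFEC*, *ALX4*, *PNP* and *MPV17*, taken by gene name from the table of read counts in corn snake (*Pantherophis guttatus*) embryonic skin. They are 7 of the 25731 genes in the table. All 7 passed the filter on low counts, which kept 17025 genes, and all 7 were tested. The genes were taken by name and not by a measured value, but they were chosen with earlier results of these data known.

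At embryonic day 40, dorsal skin was taken from 6 embryos and the poly(A) RNA of each was sequenced as a library of its own. In the first group, 3 embryos were homozygous for the hypomelanistic allele (mh/mh), a variant of the species with reduced melanin. In the second group, 3 embryos were wild-type. According to the study's methods, both parents were heterozygous (mh/+) and all embryos came from their single clutch, so the groups share their parents. The labels give no sex and no batch. The embryos came from separate eggs, so the spread within a group is that between animals of 1 clutch.

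Iridophores are pigment cells that reflect light from stacked guanine crystals, and together with melanophores and xanthophores they set the colour of reptile and fish skin. In zebrafish, neural crest cells take the iridophore fate under the receptor tyrosine kinase Ltk, which is activated by the secreted Alkal ligands. The transcription factor Tfec acts in the same lineage, purine nucleoside phosphorylase serves the making of guanine, and loss of Mpv17 depletes iridophores. These roles are known from zebrafish, and most of these genes are also expressed outside pigment cells, for example *TFEC* in macrophages and *ALX4* in mesenchyme of mammals. In bulk RNA, fewer cells of a type and less RNA per cell cannot be told apart.

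The comparison asks whether transcripts of this set differ between hypomelanistic and wild-type skin. None of the 7 genes passed the threshold. By the edgeR quasi-likelihood test with Benjamini-Hochberg adjustment at 0.05, 0 of 7 were called, where 0.0235% of all tested genes (4 of 17025) were called. DESeq2 and limma-voom also called 0 of 7, and the share of genes that DESeq2 called was 0.476% (85 of 17853). At an unadjusted edgeR p under 0.05 there were again 0 of 7, beside 5.63% of tested genes. The CPM, a gene's read count scaled to the size of its library, overlapped between hypomelanistic and wild-type embryos for each of the 7, whereas for 12.2% of tested genes they did not. The fitted values were above 0 for 4 genes and below 0 for 3, with a median log2 fold change of 0.00, as over all tested genes. The median size of the change was 0.09 on the log2 scale, beside 0.11 over all tested genes.

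**Figure D1:**
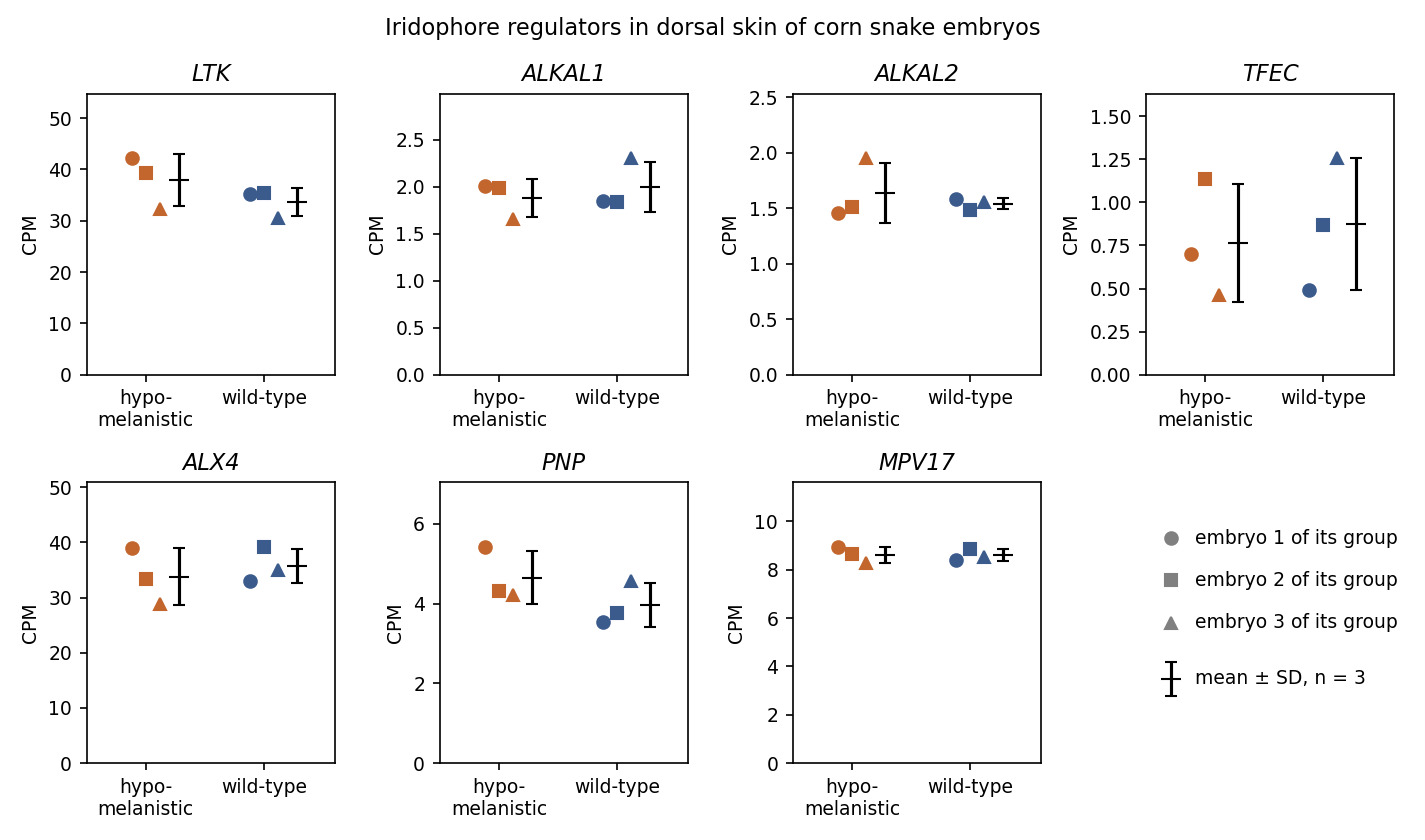
Read counts scaled to library size (CPM, linear axes from 0) of the 7 regulators in each embryo, hypomelanistic in orange and wild-type in blue, with the mean and SD of 3 embryos beside the points. In every panel the points of hypomelanistic and wild-type embryos overlap, and the widest relative spread is that of *TFEC*, between 0.460 and 1.26 CPM.

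The receptor gene *LTK* (scaffold NW_026844021.1, 32842724 to 32950610, minus strand, 29 exons after merging) encodes leukocyte tyrosine kinase, which in zebrafish is needed for iridophores to form. It had 42.2, 39.3 and 32.2 CPM in hypomelanistic embryos 1 to 3, against 35.1, 35.5 and 30.5 CPM in wild-type embryos 1 to 3. Hypomelanistic embryos 1 and 2 were above every wild-type embryo, while hypomelanistic embryo 3 was below wild-type embryos 1 and 2, so the groups overlapped. The means were 37.9 ± 5.11 CPM in hypomelanistic and 33.7 ± 2.76 CPM in wild-type skin (SD, n = 3 each). *LTK* differed by a log2 fold change of 0.17 ± 0.116 (SE, edgeR adjusted p = 0.830), and the two-sided exact permutation test on CPM gave p = 0.3, where 3 embryos against 3 allow no p below 0.1. The 95% interval of the fold reached from 0.931 to 1.36, so a rise of up to that size was not separated from no change.

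*LTK* was read with 1022 to 1447 counts per library, and its variance within groups was 16.1 times that of counting error alone (Pearson chi-square per degree of freedom). The lead of the hypomelanistic mean rested in part on hypomelanistic embryo 1, without which the log2 fold change was 0.09. It rested in like measure on wild-type embryo 3, without which the log2 fold change was 0.10. Without hypomelanistic embryo 3 it was 0.27. Hypomelanistic embryo 1 also had the highest summed level of the chromatophore and neural crest markers *SOX10*, *TFAP2A*, *ERBB3*, *EDNRB* and *PAX3*. This sum was 269, 249 and 232 CPM in hypomelanistic embryos 1 to 3, against 227, 243 and 264 CPM in wild-type embryos 1 to 3, and its part in the *LTK* values was not tested. Wild-type embryo 3, the lowest for *LTK*, had the second highest sum. Most of this sum was *TFAP2A*, at 165 CPM in hypomelanistic embryo 1 and 162 CPM in wild-type embryo 3. In hypomelanistic embryo 1 *ERBB3* was also highest, at 15.3 CPM, while *SOX10* was second lowest, at 39.4 CPM, so the sum did not follow *SOX10*. The keratinocyte markers *TP63* and *CDH1* were highest in that embryo too, at 81.5 and 93.5 CPM, while *ITGA6*, *DSP*, *EVPL* and *PKP3* were not. Whether the sum followed pigment cells or epidermis was not tested. Of these 5 markers, 0 were called, with a median log2 fold change of -0.03.

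*ALKAL1* (NW_026844077.1, 42224763 to 42255657, plus strand) encodes a secreted ligand of LTK and of the related receptor ALK. In hypomelanistic embryos 1 to 3 it had 2.01, 1.98 and 1.65 CPM, against 1.84, 1.84 and 2.30 CPM in wild-type embryos 1 to 3. The single highest value was that of wild-type embryo 3 and the single lowest that of hypomelanistic embryo 3, with the other 4 embryos close together between them. *ALKAL1* averaged 1.88 ± 0.2 CPM in hypomelanistic and 1.99 ± 0.265 CPM in wild-type skin (SD, n = 3 each). The log2 fold change was -0.09 ± 0.205 (edgeR adjusted p = 0.947, exact permutation p = 0.6), and the 95% interval of the fold was 0.674 to 1.32. With 57 to 77 counts per library, its variance within groups was 0.965 times that of counting error.

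*ALKAL2* (NW_026844025.1, 30931502 to 30944609, minus strand) encodes the other ligand of this receptor pair. It had 1.46, 1.51 and 1.95 CPM in hypomelanistic embryos 1 to 3, against 1.59, 1.48 and 1.55 CPM in wild-type embryos 1 to 3. Here hypomelanistic embryo 3 stood highest, and the wild-type values lay inside the range of the hypomelanistic ones. The means were 1.64 ± 0.27 CPM in hypomelanistic and 1.54 ± 0.0518 CPM in wild-type skin, and *ALKAL2* had a log2 fold change of 0.09 ± 0.214 (fold interval 0.751 to 1.51, edgeR adjusted p = 0.947, exact permutation p = 0.9). Counts were 46 to 72 per library, and the variance within groups was 0.817 times that of counting error.

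In hypomelanistic embryo 3, *ALKAL1* was at its lowest and *ALKAL2* at its highest level, with 61 and 72 counts. The exact Poisson intervals of these counts, 46.7 to 78.4 and 56.3 to 90.7, overlap. Neither gene varied within groups by more than counting error, so a shift between the ligands in this embryo was not separated from counting noise. Taken per kilobase of exon, the ratio of *ALKAL2* to *ALKAL1* was 0.692, 0.727 and 1.13 in hypomelanistic embryos 1 to 3, against 0.821, 0.771 and 0.645 in wild-type embryos 1 to 3. That embryo was the only 1 of the 6 libraries in which *ALKAL2* exceeded *ALKAL1*. Over the groups the ratio did not separate (exact permutation p = 0.7, adjusted over 5 ratios 0.875).

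The receptor was more abundant per kilobase than its ligands together. *LTK* over the sum of *ALKAL1* and *ALKAL2*, in CPM per kilobase, was 3.09, 2.86 and 2.29 in hypomelanistic embryos 1 to 3, against 2.60, 2.71 and 2.01 in wild-type embryos 1 to 3. Embryo 3 of each group had the lowest ratio of its group. The group means were 2.74 ± 0.413 in hypomelanistic and 2.44 ± 0.379 in wild-type skin (exact permutation p = 0.4, adjusted over 5 ratios 0.875).

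*ALK*, the paralogous receptor that also binds these ligands, was read far less. It had 1.20 ± 0.0329 CPM in hypomelanistic and 1.22 ± 0.511 CPM in wild-type skin, a log2 fold change of -0.03 ± 0.325. Per kilobase, *LTK* exceeded *ALK* by 44.6, 43.7 and 34.2 times in hypomelanistic embryos 1 to 3, against 42.6, 56.9 and 22.0 times in wild-type embryos 1 to 3. The wild-type ratios spread more widely, with both the highest and the lowest value (exact permutation p = 1, and adjusted p = 1). A second gene with an ALK-like product name (LOC117671371) had 1 to 3 counts per library and was not tested.

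*SOX10*, the transcription factor of neural crest pigment and glial cells, was even across the groups, with 39.6 ± 0.937 CPM in hypomelanistic and 40.4 ± 0.394 CPM in wild-type skin. Set against it, *LTK* per kilobase was 0.567, 0.538 and 0.421 of *SOX10* in hypomelanistic embryos 1 to 3, against 0.458, 0.463 and 0.405 in wild-type embryos 1 to 3. The order of the embryos was the same as that of *LTK* in CPM, with hypomelanistic embryos 1 and 2 highest and wild-type embryo 3 lowest. *SOX10* itself lay between 38.8 and 40.6 CPM in the 6 libraries, so the ratio largely restates *LTK*. The groups overlapped (exact permutation p = 0.3, adjusted over 5 ratios 0.875).

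*TFEC* (NW_026844019.1, 6047038 to 6075941, minus strand) encodes a transcription factor of the MiT/TFE family, to which the melanophore regulator MITF also belongs. It was the least abundant and most variable of the 7, with 0.699, 1.13 and 0.460 CPM in hypomelanistic embryos 1 to 3, against 0.490, 0.871 and 1.26 CPM in wild-type embryos 1 to 3. Low and high embryos occurred in both groups, with hypomelanistic embryo 3 and wild-type embryo 1 lowest and wild-type embryo 3 and hypomelanistic embryo 2 highest. The highest value was 2.73 times the lowest. *TFEC* averaged 0.764 ± 0.341 CPM in hypomelanistic and 0.872 ± 0.383 CPM in wild-type skin (SD, n = 3 each).

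*TFEC* had a log2 fold change of -0.20 ± 0.457 (edgeR adjusted p = 0.945, exact permutation p = 0.7). Its 95% interval, a fold of 0.414 to 1.84, is the widest of the set. With 3 embryos per group it includes changes of either sign, and it is not a limit of detection. The raw counts of *TFEC* were 24, 36 and 17 in hypomelanistic embryos 1 to 3, against 17, 27 and 42 in wild-type embryos 1 to 3. The exact Poisson interval of 17 counts (9.90 to 27.2) and that of 42 counts (30.3 to 56.8) do not meet. The variance within groups was 5.50 times that of counting error, so the embryos differed by more than counting noise while the genotypes did not separate. The Poisson intervals cover counting error only. The direction was carried by single embryos, since the log2 fold change was 0.17 without wild-type embryo 3 and 0.07 without hypomelanistic embryo 3.

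Myeloid markers were looked at beside *TFEC* because the gene is expressed in macrophages of mammals. Their sum over 6 genes was 127, 127 and 124 CPM in hypomelanistic embryos 1 to 3, against 130, 108 and 134 CPM in wild-type embryos 1 to 3, and 0 of 6 were called. Most of this sum was *CD74*, at 59.7 to 94.5 CPM over the 6 libraries. *CSF1R*, a receptor of macrophages that is also found in xanthophores, had 5.33, 4.41 and 3.14 CPM in hypomelanistic embryos 1 to 3, against 4.09, 7.68 and 7.02 CPM in wild-type embryos 1 to 3 (log2 fold change -0.54, not called). Like *TFEC*, *CSF1R* was lowest in hypomelanistic embryo 3 and next lowest in wild-type embryo 1, an order that no other gene of the list shared. *TFEC* had 17 counts in both of these embryos, so their order came from library scaling. The Poisson interval of hypomelanistic embryo 1 for *TFEC*, 15.4 to 35.7, overlaps theirs, so this order was within counting error. The higher embryos differed between *TFEC* and *CSF1R*. *TFEC* was highest in wild-type embryo 3 and next in hypomelanistic embryo 2, *CSF1R* in wild-type embryo 2 and next in wild-type embryo 3. *C1QA* and *C1QC* were lowest in wild-type embryo 1, *C1QB* in hypomelanistic embryo 1, and *CD74* and *PTPRC* in wild-type embryo 2. The part of myeloid cells in the *TFEC* values was not tested.

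The other members of the MiT/TFE family gave a background for *TFEC*. *MITF* had 28.5 ± 2.06 CPM in hypomelanistic and 29.5 ± 5.28 CPM in wild-type skin (log2 fold change -0.05 ± 0.133), and *TFEB*, a regulator of lysosomal genes, had 5.54 ± 0.453 CPM in hypomelanistic and 5.57 ± 0.58 CPM in wild-type skin. *TFE3*, the most abundant of the family per kilobase, was at 41.0, 40.1 and 43.1 CPM in hypomelanistic embryos 1 to 3, against 36.2, 39.9 and 33.1 CPM in wild-type embryos 1 to 3. These values did not overlap between the groups, but *TFE3* did not pass the test (log2 fold change 0.19 ± 0.0855, unadjusted p = 0.0651, edgeR adjusted p = 0.828). Of the 4 family members, 1 was fitted higher and 3 lower in hypomelanistic skin, with a median of -0.03.

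Per kilobase, *TFEC* stood at 0.127, 0.205 and 0.0948 of *MITF* in hypomelanistic embryos 1 to 3, against 0.0743, 0.172 and 0.262 in wild-type embryos 1 to 3. The ratio was below 1 in each of the 6 libraries, and the groups overlapped across its whole range (exact permutation p = 0.7, adjusted over 5 ratios 0.875).

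*ALX4* (NW_026844021.1, 43586533 to 43665495, plus strand) encodes a homeobox factor of the head and limb mesenchyme that is also expressed in zebrafish iridophores. It lies 10.6 Mb from *LTK* on the same scaffold. In hypomelanistic embryos 1 to 3 it had 39.1, 33.4 and 28.8 CPM, against 33.1, 39.2 and 35.0 CPM in wild-type embryos 1 to 3. The highest value was that of wild-type embryo 2, almost equal to that of hypomelanistic embryo 1, and the lowest was that of hypomelanistic embryo 3. *ALX4* averaged 33.7 ± 5.16 CPM in hypomelanistic and 35.8 ± 3.14 CPM in wild-type skin (SD, n = 3 each).

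For *ALX4* the log2 fold change was -0.08 ± 0.124 (edgeR adjusted p = 0.916, exact permutation p = 0.6), and the fold interval was 0.771 to 1.16. With 1061 to 1341 counts per library, the variance within groups was 18.5 times that of counting error. An unnamed gene on the opposite strand (LOC132710711) lies within the span of *ALX4* and shares 0 exon bases with it. The related homeobox gene *ALX1* had 0 to 12 counts per library, at 0.138 ± 0.162 CPM in hypomelanistic and 0.0829 ± 0.0719 CPM in wild-type skin, and did not pass the filter.

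*PNP* (NW_026844030.1, 515370 to 545170, minus strand) encodes purine nucleoside phosphorylase, which releases guanine and hypoxanthine from their nucleosides. It had 5.42, 4.31 and 4.22 CPM in hypomelanistic embryos 1 to 3, against 3.55, 3.77 and 4.57 CPM in wild-type embryos 1 to 3. Hypomelanistic embryo 1 was highest and wild-type embryos 1 and 2 were lowest, but wild-type embryo 3 was above hypomelanistic embryos 2 and 3. The means were 4.65 ± 0.667 CPM in hypomelanistic and 3.96 ± 0.539 CPM in wild-type skin (SD, n = 3 each). At 0.23 ± 0.176, *PNP* had the largest log2 fold change of the 7, and it did not pass the test (unadjusted p = 0.231, edgeR adjusted p = 0.830, exact permutation p = 0.3). The fold interval was 0.881 to 1.56. Without hypomelanistic embryo 1 the log2 fold change was 0.11, and without wild-type embryo 3 it was 0.35.

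Other enzymes that handle purine nucleosides and bases did not pass the test either. Of the 6 tested genes of this list, *PNP* included, 4 were fitted higher and 2 lower, with a median of 0.03 and 0 called by edgeR or DESeq2. *HPRT1*, which salvages guanine and hypoxanthine to nucleotides, had 18.04, 17.9 and 19.0 CPM in hypomelanistic embryos 1 to 3, against 17.5, 16.5 and 17.8 CPM in wild-type embryos 1 to 3. The values did not overlap, by a narrow margin, and the log2 fold change was 0.08 ± 0.0795 (edgeR adjusted p = 0.861). *APRT*, the adenine salvage enzyme, was the most abundant of the list at 827 CPM per kilobase, with a log2 fold change of -0.04 ± 0.107.

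*MPV17* (NW_026844043.1, 5457538 to 5470946, plus strand) encodes an inner mitochondrial membrane protein whose loss in zebrafish removes most iridophores. Its values were the steadiest of the set, at 8.95, 8.65 and 8.28 CPM in hypomelanistic embryos 1 to 3, against 8.39, 8.87 and 8.55 CPM in wild-type embryos 1 to 3. The highest and the lowest embryo were both hypomelanistic, and the highest was 1.08 times the lowest. *MPV17* averaged 8.63 ± 0.332 CPM in hypomelanistic and 8.60 ± 0.247 CPM in wild-type skin (SD, n = 3 each). The log2 fold change was 0.00 ± 0.101 (edgeR adjusted p = 0.998, exact permutation p = 0.9), with a fold interval of 0.851 to 1.18. At 275 to 307 counts per library, the variance within groups was 0.343 times that of counting error.

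Related membrane proteins did not pass the test either. *PXMP2*, a peroxisomal channel protein and the most abundant of the family per kilobase, had 19.3 ± 3.56 CPM in hypomelanistic and 18.1 ± 1.54 CPM in wild-type skin (log2 fold change 0.10 ± 0.143). *MPV17L2*, a mitochondrial ribosome factor, had 6.33 ± 0.266 CPM in hypomelanistic and 6.96 ± 0.429 CPM in wild-type skin (log2 fold change -0.14 ± 0.117, edgeR adjusted p = 0.847). Further genes with MPV17L-like and MPV17L2-like product names (LOC132712204 and LOC117674097) had 8 to 21 and 11 to 48 counts per library, and counts between such copies may be split.

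**Figure D2:**
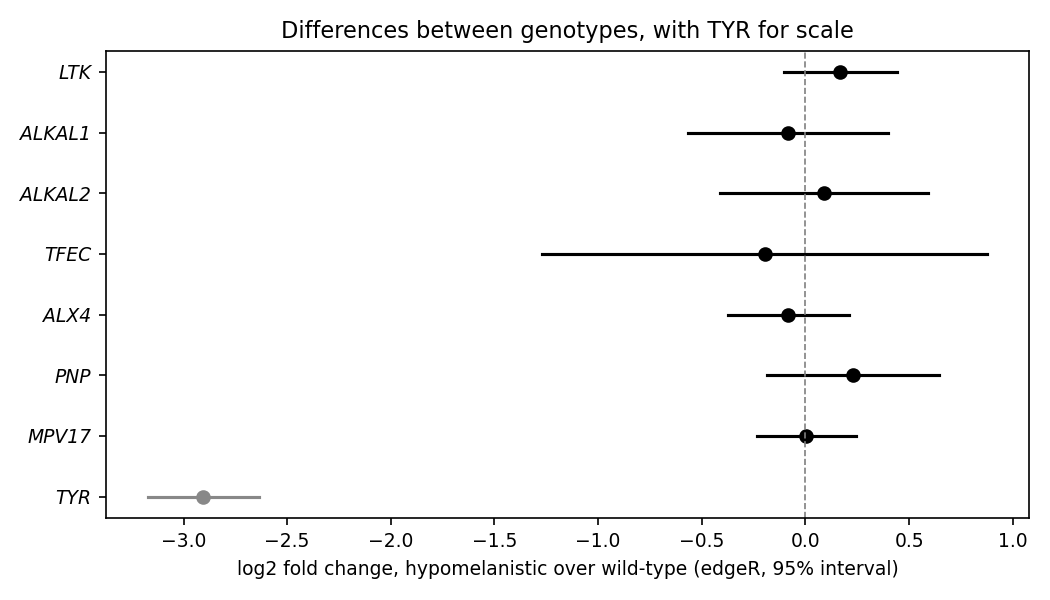
Log2 fold change, hypomelanistic over wild-type, of the 7 regulators and of *TYR* for scale, with 95% intervals from the edgeR fit. All 7 intervals include 0, *TFEC* has the widest at -1.27 to 0.88, and *TYR* lies apart at -2.90.

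*TYR*, which encodes the tyrosinase of melanin synthesis, served as a check of the labels. It had 4.78, 5.13 and 5.01 CPM in hypomelanistic embryos 1 to 3, against 42.6, 34.5 and 34.5 CPM in wild-type embryos 1 to 3, a log2 fold change of -2.90 ± 0.115 (edgeR adjusted p = 0.000415). Its fold interval was 0.111 to 0.161. The lower fold bound of each of the 7 regulators, the lowest being 0.414 for *TFEC*, was above the upper bound for *TYR*. A change of the size seen for *TYR* thus lay outside the interval of every regulator.

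**Figure D3:**
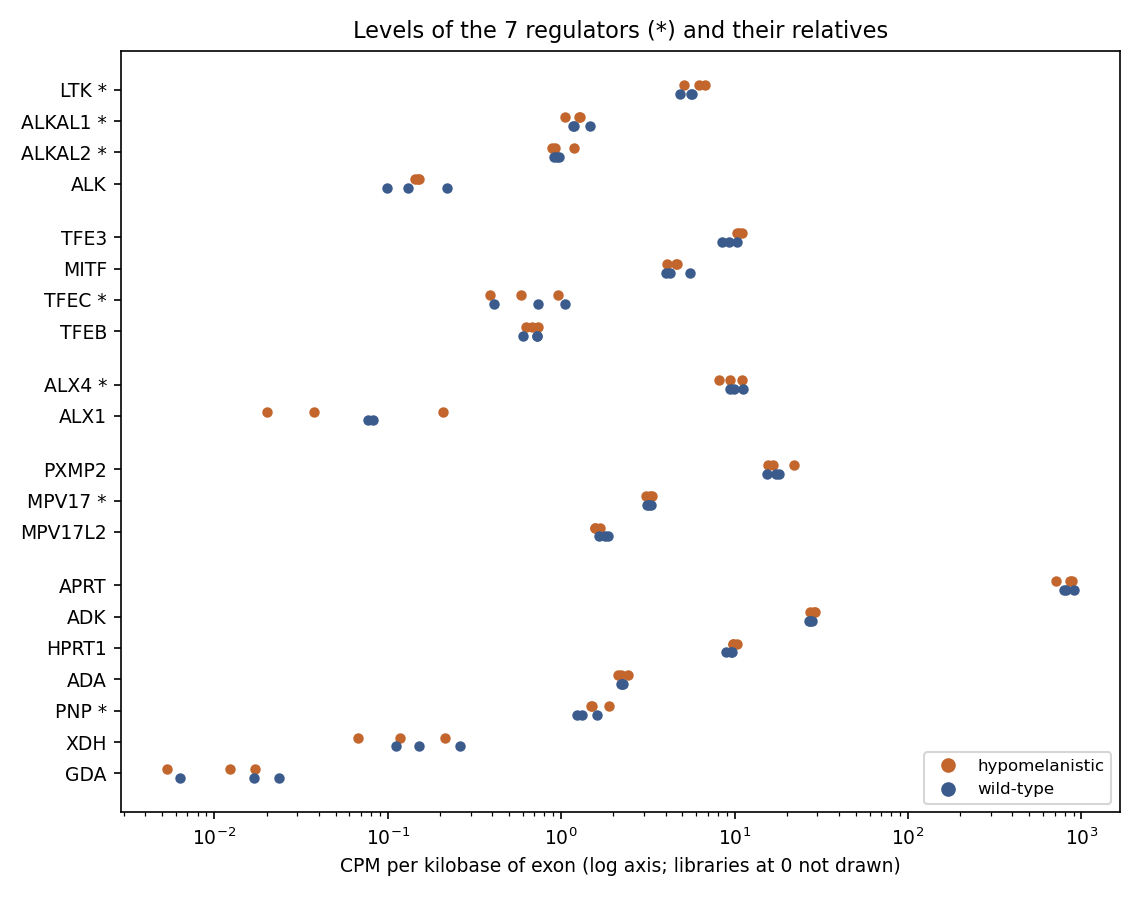
CPM per kilobase of exon (log axis) in each library for the 7 regulators (marked with an asterisk) and related genes by family, hypomelanistic in orange above wild-type in blue. Libraries at 0 are not drawn, and the points of *LTK* lie between 4.87 and 6.72, above those of *ALKAL1* and *ALKAL2* and far above those of *ALK*.

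Levels of the 7 genes were compared with each other per kilobase of exon, over the 6 libraries. *ALX4* was highest, with a median of 9.70 CPM per kilobase (8.16 to 11.1), followed by *LTK* at 5.63 (4.87 to 6.72) and *MPV17* at 3.21 (3.10 to 3.34). The ranges of these 3 did not meet, and *MPV17* also lay above all values of *PNP*. Below it came *PNP* at 1.49 (1.24 to 1.89), *ALKAL1* at 1.23 (1.06 to 1.47), *ALKAL2* at 0.937 (0.891 to 1.19) and *TFEC* at 0.660 (0.387 to 1.06). Among these 4, each range met that of its neighbour, so the order of neighbours was not separated by the spread of the libraries. *PNP* lay above all values of *ALKAL2* and *TFEC*, and *ALKAL1* lay narrowly above all values of *TFEC* (lowest 1.057 against highest 1.056). Within libraries, *PNP* was above *ALKAL1* in 6 of 6, *ALKAL1* above *ALKAL2* in 5 of 6 and *ALKAL2* above *TFEC* in 4 of 6.

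**Figure D4:**
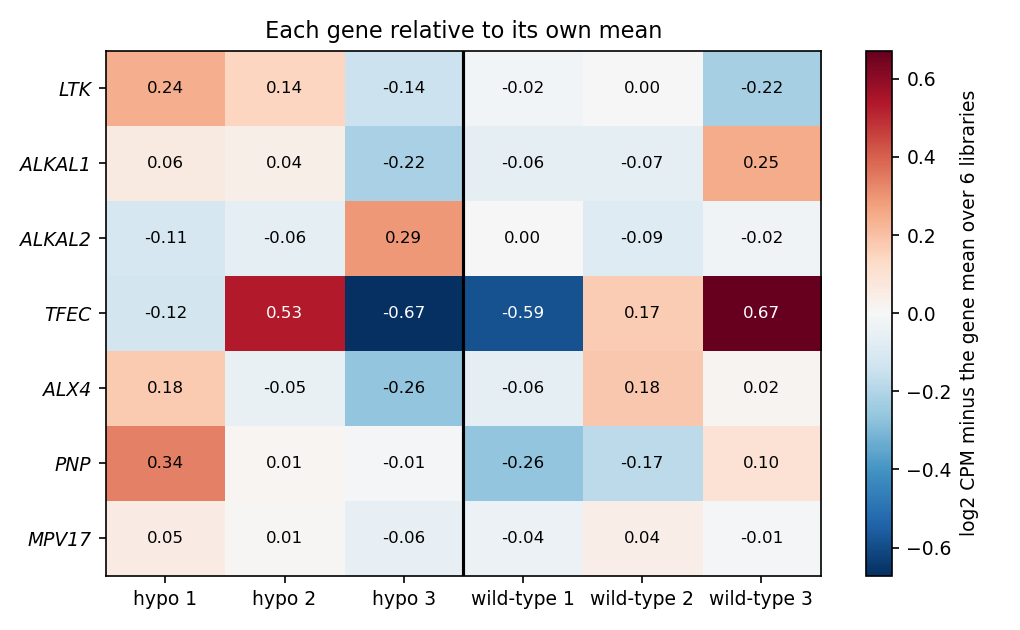
Log2 CPM of each regulator in each library minus its mean over the 6 libraries, with hypomelanistic embryos left of the line and wild-type embryos right of it. Hypomelanistic embryo 3 is below the mean for 6 of 7 genes and at 0.29 for *ALKAL2*, and the *TFEC* row holds the largest deviations, from -0.67 to 0.67.

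No embryo had the highest or the lowest level for all 7 genes, and whether the genes varied together was not tested. Hypomelanistic embryo 1 had the highest level for 3 of 7 (*LTK*, *PNP* and *MPV17*) and the lowest for *ALKAL2*. Hypomelanistic embryo 3 had the lowest level for 4 of 7 (*ALKAL1*, *TFEC*, *ALX4* and *MPV17*) and the highest for *ALKAL2*. For *ALKAL1*, *ALKAL2* and *MPV17* the variance within groups was near or below counting error, so their highest and lowest embryos were not separated from counting noise. How often each embryo was highest or lowest over all tested genes is not given here. In log2 CPM, relative to each gene's mean, hypomelanistic embryo 3 was at -0.14 for *LTK*, -0.22 for *ALKAL1*, -0.67 for *TFEC* and -0.26 for *ALX4*, against 0.29 for *ALKAL2*. Wild-type embryo 3 was highest for *ALKAL1* and *TFEC*, at 0.25 and 0.67, and lowest for *LTK*, at -0.22.

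Differences between the libraries as a whole stand beside these values. Library totals were 29958657 to 38541392 counts, the largest being that of hypomelanistic embryo 3. Ribosomal RNA genes took 10.2% to 13.4% of the counts in hypomelanistic and 7.37% to 8.80% in wild-type libraries, with hypomelanistic embryo 3 again highest. On the first principal component, which held 35.9% of the variance of 500 variable genes, hypomelanistic embryo 1 was at 32.6 and the other 5 libraries lay between -11.2 and 1.58. Skeletal muscle markers summed to 606 to 2404 CPM in hypomelanistic and 749 to 2693 CPM in wild-type libraries, lowest in hypomelanistic embryo 1. The summed levels of all 10 marker lists overlapped between the groups, and *TYR* was the only marker called by edgeR. These sums follow their most abundant genes, and single tested markers besides *TYR* did not overlap. *DPT*, *EVPL*, *KDR* and *PRPH* were lower and *EGFL7* higher in hypomelanistic embryos, where 12.2% of all tested genes did not overlap. Tested markers numbered 10 for melanophores, 8 for xanthophores, 5 for chromatophores and neural crest, 7 for fibroblasts and 6 for keratinocytes. They numbered 5 for endothelium, 4 for erythroid, 6 for myeloid, 5 for muscle and 4 for Schwann cells and nerve, with *CSF1R* in both the xanthophore and myeloid lists. Fibroblast markers, which skin should hold, were at 84141 to 97366 CPM in hypomelanistic and 93312 to 95595 CPM in wild-type libraries, and 7 of 7 were fitted lower in hypomelanistic skin with 0 called (median log2 fold change -0.25). Schwann cell and nerve markers summed to 34.99 to 39.01 CPM in hypomelanistic and 37.1 to 69.0 CPM in wild-type libraries, highest in wild-type embryo 2, and 4 of 4 tested were fitted lower in hypomelanistic skin with 0 called (median log2 fold change -0.56). With ribosomal RNA genes left out, the log2 fold change was 0.17 for *LTK*, 0.24 for *PNP* and -0.19 for *TFEC*, and 0 of 7 regulators were called. The study's own component analysis read its first component as embryo sex, and whether the component computed here stands for sex was not tested. With this component as a covariate the log2 fold change was 0.11 for *LTK*, -0.16 for *ALKAL1*, 0.16 for *ALKAL2*, -0.22 for *TFEC*, -0.19 for *ALX4*, 0.09 for *PNP* and -0.02 for *MPV17*, with 0 called. The part of marker levels and library totals in the values of the regulators was not tested.

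**Figure D5:**
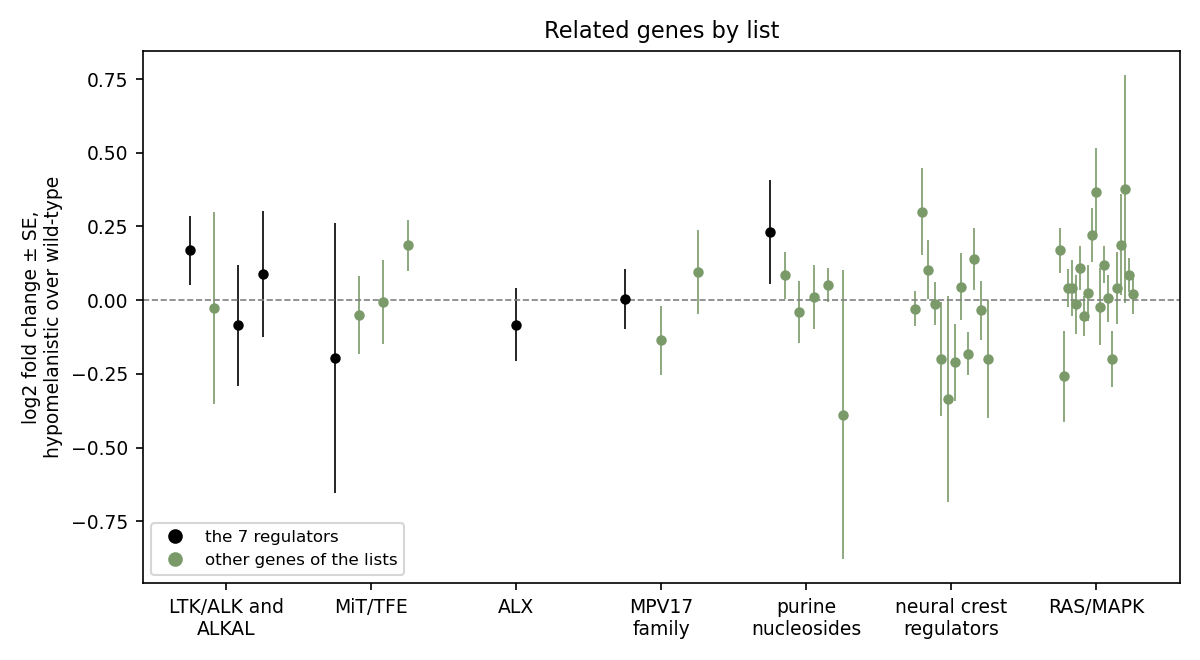
Log2 fold change ± SE, hypomelanistic over wild-type, for the tested genes of 7 lists, with the 7 regulators in black and other genes of the lists in green. Values lie on both sides of 0 in most lists, with 14 of 19 above 0 among RAS and MAPK genes and 8 of 12 below 0 among neural crest regulators, and 0 were called.

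Beyond the 7, the lists held 42 other tested genes of the same families and pathways. Of these, 23 were fitted higher and 19 lower in hypomelanistic skin, 0 were called by edgeR or DESeq2, and the median log2 fold change was 0.02. An unadjusted edgeR p under 0.05 was found for 3 of 42 (7.14%), and the groups did not overlap for 7 of 42 (16.7%), beside 5.63% and 12.2% over all tested genes. The 7 were *TFE3*, *HPRT1*, *MAPK3* and *ETV5*, higher in hypomelanistic embryos, and *ZEB2*, *SHC3* and *SPRY2*, lower in them.

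Among 12 tested neural crest regulators that act ahead of the pigment lineages, 4 were fitted higher and 8 lower, with a median of -0.03. The lowest p was that of *ZEB2*, a zinc finger factor of neural crest and melanocytes, with 131, 138 and 121 CPM in hypomelanistic embryos 1 to 3, against 142, 154 and 146 CPM in wild-type embryos 1 to 3. Every hypomelanistic value was below every wild-type value, with a log2 fold change of -0.18 ± 0.072 (unadjusted p = 0.0387), but the edgeR adjusted p was 0.828. *TFAP2C*, the most abundant of this list per kilobase, was at -0.01 ± 0.0729.

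Receptors of the LTK and ALK family signal through RAS and the MAP kinases. Of 19 tested genes of this pathway, 14 were fitted higher and 5 lower, with a median of 0.04 and 0 called. The kinase gene *MAP2K2* had 43.7, 32.9 and 30.8 CPM in hypomelanistic embryos 1 to 3, against 26.1, 25.6 and 31.5 CPM in wild-type embryos 1 to 3. Its groups overlapped through hypomelanistic embryo 3 and wild-type embryo 3, and its log2 fold change was 0.37 ± 0.15 (unadjusted p = 0.0426). The paralogue *MAP2K1*, the most abundant of the list per kilobase, averaged 95.8 ± 9.93 CPM in hypomelanistic and 82.1 ± 4.98 CPM in wild-type skin (log2 fold change 0.22 ± 0.0911, unadjusted p = 0.0441). The edgeR adjusted p of both was 0.828.

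The genes whose profile over the 6 libraries lay nearest to a regulator were found by the root mean square difference of centred log2 CPM, over 12296 named genes. For *LTK* they were *TMEM161B* (0.0351), *IRX1* (0.0397) and *HSD3B7* (0.0414), where the median gene was at 0.210. For *ALX4* they were *DYRK3* (0.0277), *COL12A1* (0.0299) and *CCDC102A* (0.0369), where the median was 0.208. Nearest to *ALKAL1* were *SLC1A5* (0.0237), *NET1* (0.0429) and *SLC3A1* (0.0438), beside a median of 0.199. Nearest to *ALKAL2* were *STK19* (0.0353), *IER3IP1* (0.0361) and *RPL27A* (0.0363), beside a median of 0.193. For *TFEC*, whose profile varied most, they were *NCEH1* (0.149), *B3GNT5* (0.190) and *LRRC3* (0.195), beside a median of 0.534. With 6 points per profile these are descriptions of the same libraries. The nearest of 12296 genes lie below the median by construction. Within groups, *ALKAL1* and *ALKAL2* varied by 0.965 and 0.817 times counting error, so a match to their profiles was not separated from counting noise. None of the other regulators was among the 3 genes nearest to any of these 5. With 12296 genes compared, this absence does not show whether the regulators varied together.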

How the data were processed

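The authors deposited unnormalized read counts for each gene, with its coordinates and exon length in the CU assembly of the genome. Per the labels and the submitters' processing notes, poly(A) libraries from a stranded kit were aligned with STAR 2.7.10b and counted with featureCounts of Subread 2.0.6. Whether the counting used strand was not given in the sources used here. Of the table's lines, 4 were broken (*DST* and *MACF1*) and were left out.

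In R 4.3.3, counts were scaled with TMM factors, filtered with filterByExpr and tested with the edgeR 4.0.16 quasi-likelihood test without covariates (Benjamini-Hochberg, threshold 0.05, two-sided). CPM use the TMM-scaled totals, 29958657 to 38541392 counts before scaling, and CPM were divided by the deposited exon length to compare genes. DESeq2 1.42.0, limma-voom (limma 3.58.1), other scalings and filters, a covariate, a replicate block and leaving out each library were the alternatives, 15 in all. The procedure was tested on simulated data. All 20 assignments of libraries to groups entered the exact permutation tests, which were two-sided. No library was a duplicate of another, since the chi-square of library pairs was 22.1 to 72.5 times its degrees of freedom. Centred log2 CPM used a prior count of 2.

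The regulators and lists were chosen with earlier results of these data known. Named are all 7 regulators, *TYR*, in each related list the gene with the smallest p and the one most abundant per kilobase, the 3 genes of nearest profile for the receptor, ligands and transcription factors, and copies by product name. *SOX10*, *MITF*, *TFEB*, *ALK*, *ALX1*, *HPRT1*, *CD74*, *CSF1R*, the non-overlapping genes and the members of the chromatophore and keratinocyte lists were named after their values were seen. *ALK* and some listed genes carry a LOC name in the table and were matched by number to the annotation of a newer assembly (ASM5975653v1), used for names only. *GBX2* and *MPV17L* were not matched and are not analysed here.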

Additional observations from a re-analysis of the deposited data

How the results depend on the processing

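Under each of the 15 alternatives, 0 of 7 regulators and 0 of the 42 related genes were called, and the adjusted p of the regulators was between 0.738 (*PNP*) and 0.999. *LTK* and *PNP* kept their direction in 15 of 15. Leaving out 1 library moved the log2 fold change of *LTK* between 0.09 and 0.27 and that of *PNP* between 0.11 and 0.35. The direction of the others turned when 1 library was left out: *ALKAL1* lay between -0.14 and 0.0316 (positive without hypomelanistic or wild-type replicate 3), *ALKAL2* between -0.0541 and 0.17 (negative without hypomelanistic replicate 3), *TFEC* between -0.59 and 0.17 (positive without hypomelanistic or wild-type replicate 3), *ALX4* between -0.20 and 0.0212 (positive without hypomelanistic replicate 3), and *MPV17* between -0.0224 and 0.0342 (negative without hypomelanistic or wild-type replicate 1). *MPV17* was also at -0.0554 without TMM factors, where the median of all genes was -0.06, and at -0.0174 with the first component as a covariate. Over all genes, 4 were called, against 85 by DESeq2 and 2 to 10 with 1 library left out (10 without hypomelanistic replicate 1, 2 without wild-type replicate 2 or 3). With a replicate block 1 gene was called. No source says that a number marks a shared origin, and the deviations of same-numbered libraries correlated at -0.08, 0.11 and -0.01, so the libraries were not read as pairs. The cause of these differences was not tested. The variance within groups was near or below that of counting error for *ALKAL1*, *ALKAL2* and *MPV17*. It was above that of counting error for *LTK*, *TFEC*, *ALX4* and *PNP*, where the number of embryos limits the precision.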
